A study of Mus musculus with 6 samples.

Results

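The genes described here encode RANK (Tnfrsf11a), the receptor for M-CSF (Csf1r), the costimulatory receptors Oscar and Trem2, the signalling adaptors Tyrobp and Fcer1g, and the TRAF proteins Traf2, Traf3 and Traf6. They were selected by symbol in the deposited table, which held all 9 of them, 1 row each, among 11031 rows. The table came from 6 RNA samples of RAW264.7, a mouse macrophage line that forms osteoclasts when it is given RANKL. Of these samples 3 were untreated controls and 3 were stimulated with RANKL, all were collected at day 3, and no other agent or genotype is named for either group. RAW264.7 is a single transformed cell line, and the samples of a group are described as biological replicates without saying whether they came from separate cultures.

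RANKL binds RANK, whose cytoplasmic tail recruits TRAF proteins. Among them TRAF6 carries the signal to NF-κB and MAP kinases, while TRAF2 and TRAF3, with their ubiquitin ligase partners, hold back the noncanonical NF-κB branch. M-CSF acts through the tyrosine kinase CSF1R to keep osteoclast precursors alive and dividing. A costimulatory signal comes from receptors that have no signalling tail of their own and pair with the adaptors TYROBP (DAP12) or FCER1G. These adaptors bear an immunoreceptor tyrosine-based activation motif (ITAM), which recruits the kinase SYK once its tyrosines are phosphorylated and feeds calcium signalling to NFATc1. TREM2 pairs with TYROBP, and OSCAR pairs with FCER1G.

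Levels are given as the authors' mean for each gene. They are levels of RNA, and protein was not analysed here. It is 1 pooled value on a log scale of FPKM, that is, fragment counts scaled for transcript length and library size, so that genes of different length can be set side by side. The scale was taken as log2; the table states neither its base nor an offset, nor over which libraries the mean runs. The values per library carry letters that match no sample label and were not used, so control and RANKL samples were not compared here, and the direction in which each gene moved is not reported. A single pooled value has no replicate spread and no known depth behind it. The order of the levels below is therefore a description, and whether neighbours in that order differ beyond replicate error was not tested. In such bulk samples, fewer cells that express a gene and less RNA per cell cannot be told apart.

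The costimulatory adaptors are shown first by the coding sequence of their ITAM, because it is the feature that they share. In a search of coding sequences, an ITAM was taken as codons for tyrosine, any 2 residues and leucine or isoleucine, repeated after 6 to 8 residues. Among the 9 genes it was found in Tyrobp and Fcer1g alone, taking the first listed transcript of each gene. The sequences below are reference sequence of the coding strand in GENCODE M21 on GRCm38, 5′ to 3′, with the codons of the paired tyrosines in capitals.
Tyrobp: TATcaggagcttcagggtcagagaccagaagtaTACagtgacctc
Fcer1g: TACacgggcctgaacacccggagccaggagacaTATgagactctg
Both runs are 45 bases long, span 2 exons and lie close to the end of the coding sequence. The Tyrobp run covers codons 92 to 106 of 114 and lies between positions 30415670 and 30417382 on the plus strand of chromosome 7. The Fcer1g run covers codons 65 to 79 of 86 and lies between positions 171229889 and 171230072 on the minus strand of chromosome 1. The motif was present in 1 of 2 annotated full coding sequences of Fcer1g. It is short and loosely defined, and 2.91% of 21817 mouse protein-coding genes hold a match, ribosomal protein genes among them, so a match by itself is not evidence of an ITAM.

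Tnfrsf11a is shown by the codons that match the TRAF6-binding motif, which is proline, any residue, glutamate, any 2 residues and an aromatic or acidic residue. The coding sequence of 625 codons held 4 matches, each of 18 bases, all on the plus strand of chromosome 1. The codons of the proline, the glutamate and the final residue are in capitals.
Tnfrsf11a, codons 74 to 79: CCCgatGAGtacttgGAC
Tnfrsf11a, codons 340 to 345: CCCacaGAGgatgagTAC
Tnfrsf11a, codons 373 to 378: CCCctgGAAgtggggGAG
Tnfrsf11a, codons 447 to 452: CCTgggGAGgaccatGAA
They lie at chr1:105809389-105809406, chr1:105827222-105827239, chr1:105827321-105827338 and chr1:105827543-105827560 in GRCm38. The last 3 matches fall in 1 part of the gene, between codons 340 and 452, and the first lies near the start of the coding sequence. At least 1 match was present in 28.1% of protein-coding genes and 4 or more in 1.14%, without allowance for the length of the coding sequence. These counts take in matches anywhere in the coding sequence. Which of the 4 matches lie in the cytoplasmic tail of RANK, where TRAF proteins bind, was not checked. Csf1r held 2 matches, Traf6 held 1 and the other members held none. A match does not show that TRAF6 binds there.

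The 9 genes spread over a wide range of levels. The genes for the adaptors and the M-CSF receptor, and Trem2, lay near the top of the table. Those for RANK and the TRAF proteins lay near its middle, and Oscar lay in its lower part. The lowest member was at 2.54, the median member at 4.24 and the highest at 9.40, against a median of 3.60 over all 11031 rows. Of the members, 6 were at or above that median and 3 were below it.

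**Figure D1:**
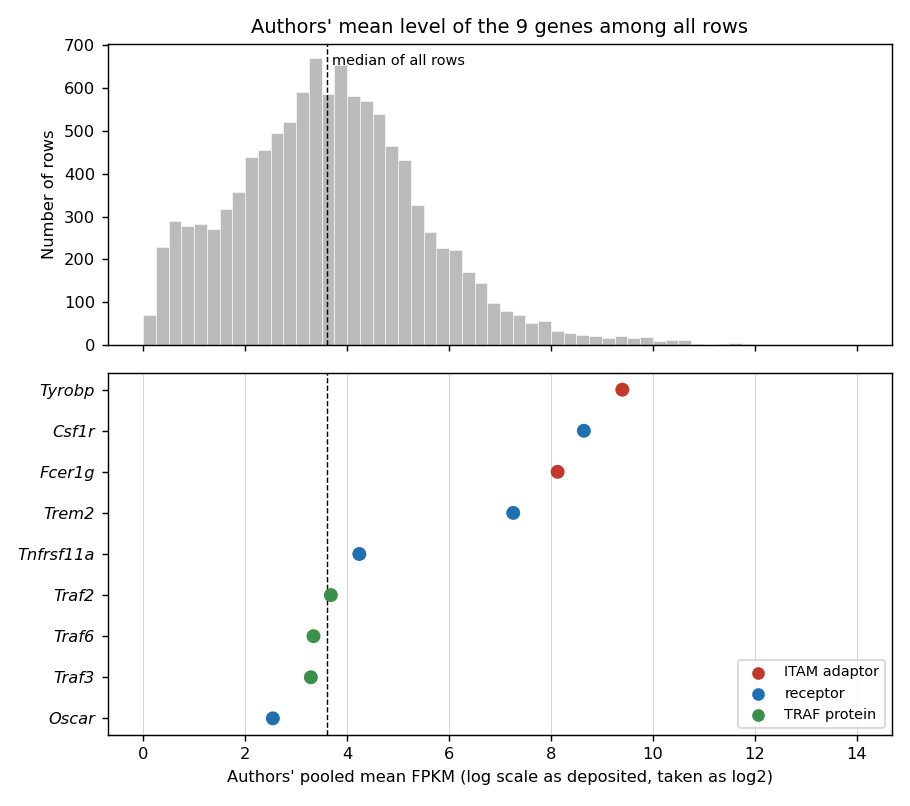
The upper panel shows how many of the 11031 rows fall in each interval of the authors' pooled mean FPKM (taken as log2). The lower panel shows that mean for each gene as 1 point coloured by role, with no error because the value is pooled. The points fall from 9.40 for Tyrobp to 2.54 for Oscar, and the dashed line marks the median of all rows at 3.60.

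The ITAM adaptors had some of the highest levels in the table. Tyrobp had an authors' mean level of 9.40, rank 98 of 11031 from the top, with 99.1% of rows below it. Fcer1g had a mean level of 8.13 and rank 219, with 98.0% of rows below it, 1.27 lower than Tyrobp on the same scale. Both adaptors were above all 24 analysed genes of a list of 40 receptors and related adaptors of the ITAM systems, whose median level was 2.73. They were likewise above all 33 analysed genes of ITAM signalling, which had a median level of 4.89 and included the kinase Syk at 4.64, the phosphatase Ptpn6 at 7.37 and the adaptor Lat2 at 7.03. At the other end of that list stood the exchange factor Vav2 at 1.65 and the adaptor Lat at 1.26.

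Tyrobp has a close neighbour. Hcst encodes DAP10, the other adaptor of this family, and lies 126 bases from Tyrobp on the opposite strand, tail to tail, without overlap. The authors' annotation gives both genes the same protein family, DAP10 membrane protein. Their mean levels differed by 5.90, with Hcst at 3.50, slightly below the median of all rows.

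The receptors that use these adaptors differed widely. Trem2, a lipid-sensing receptor of macrophages and osteoclasts, had a mean level of 7.26 and rank 410, with 96.3% of rows below it. Oscar, which binds collagen and is typical of osteoclasts, had a mean level of 2.54 and rank 7970, with 27.7% of rows below it. The difference between the receptors was 4.72, while that between Oscar and its adaptor Fcer1g was 5.59 and that between Trem2 and its adaptor Tyrobp was 2.14. Trem2 was above all 24 analysed genes of the ITAM-coupled list, and Oscar was below 14 of them and above 10. The next highest of that list were the lectin receptors Clec5a at 6.52 and Clec4d at 6.41. The lowest were Clec4a1 at 0.72 and Pilrb1 at 0.64. Siglec15, another partner of TYROBP in osteoclasts, was at 2.75, close to Oscar, and Plxna1, a semaphorin receptor that associates with TREM2, was at 3.00. A pooled mean of this kind does not separate a gene that is low in all samples from one that is present in a single group.

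Inhibitory receptors, which carry the opposite motif and recruit phosphatases, reached levels near that of Trem2. Of 22 listed symbols 17 were analysed, with a median level of 3.95. Whether each listed gene carries the motif was not checked. Sirpa, the receptor for CD47, was at 7.85 and Lilrb4a at 7.71, both above Trem2. Lilrb4b, listed with them for its likeness to Lilrb4a and not as a known inhibitory receptor, was at 7.49. The lowest of the list were Pilra at 1.45 and Treml1, which the ITAM-coupled list also held, at 1.30. None of the 17 was above Fcer1g or Tyrobp. Lilrb4a and Lilrb4b are close paralogs, as are the Pira genes and the Sirpb1 genes of the previous list, and how reads shared between such copies were counted is not stated.

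**Figure D2:**
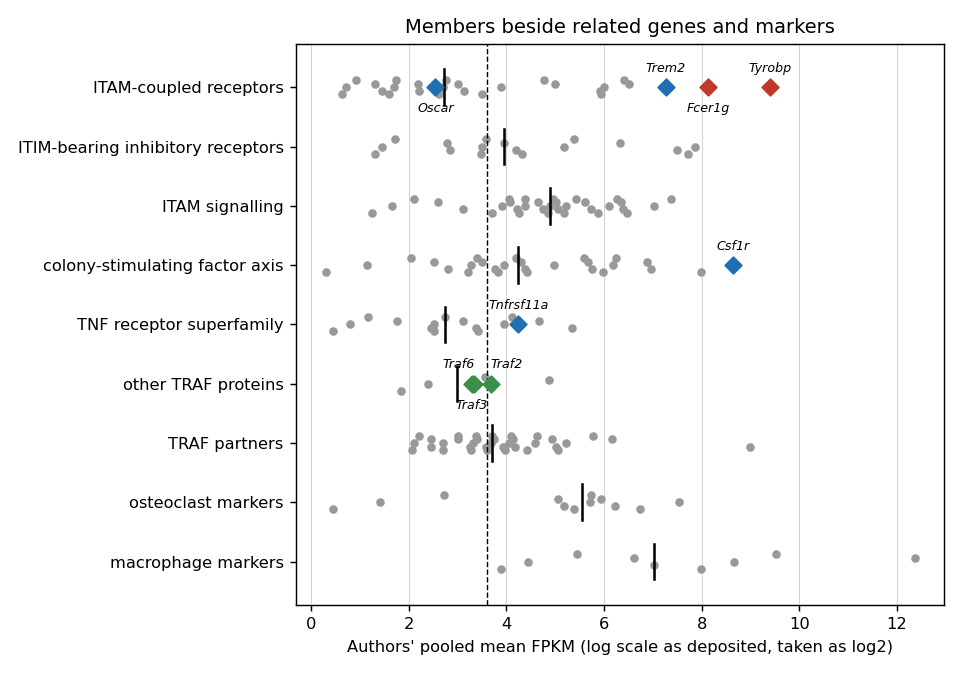
Each grey point is 1 related gene at its authors' pooled mean FPKM (taken as log2), and black bars are the median of each list. Coloured diamonds are the members (red adaptors, blue receptors, green TRAF proteins), and the dashed line is the median of all rows at 3.60. Tyrobp, Fcer1g and Trem2 lie to the right of all grey points of the ITAM-coupled list, Csf1r lies to the right of all those of the colony-stimulating factor list, and the TRAF members lie near the middle.

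The gene for the M-CSF receptor had the highest mean level of the receptor genes among the 9. Csf1r, which marks the macrophage lineage, had a mean level of 8.65 and rank 160, with 98.5% of rows below it. It was above all 26 analysed genes of a list of 32 around the colony-stimulating factor receptors. The nearest was Spi1, which encodes the transcription factor PU.1 that drives Csf1r, at 7.99, followed by the signalling inhibitor Spred1 at 6.96. The related receptor subunits Csf2ra, at 5.67, and Csf3r, at 1.15, were lower. Csf1, the gene for M-CSF itself, was the lowest of the list at 0.30. Mitf, a partner of PU.1 in osteoclasts, was at 4.29, and the sheddase Adam17, which cleaves the receptor from the surface, at 5.98. Among the 9 macrophage markers analysed, Csf1r was below Lyz2 at 12.37, Cd68 at 9.53 and Cd14 at 8.67, and above the other 6.

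Csf1r shares more sequence with other annotated genes than the other 8 members do. The gene lies on the plus strand of chromosome 18 from 61100598 to 61132149 in GRCm38, and 873 of its exonic bases are shared with the genes that overlap it, the protein-coding gene Hmgxb3 on the opposite strand and the microRNA gene Mir6983. Of its distinct 50-base words, 16.4% occur in transcripts of other genes, counting matches on either strand. For the other 8 members this share was between 0% and 0.703%. The libraries are described as strand-specific, but whether strand was used in counting is not given in the sources used here.

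RANK was far below the M-CSF receptor. Tnfrsf11a had a mean level of 4.24 and rank 3984, with 63.9% of rows below it, 4.41 lower than Csf1r. Within its own family it was nevertheless near the top, with 2 of 15 analysed receptors of the TNF receptor superfamily above it and 13 below it. Those above were the TNF receptor Tnfrsf1a at 5.34 and the lymphotoxin receptor Ltbr at 4.66. Tnfrsf1b, the other TNF receptor, was just below it at 4.10, and Cd40 was at 2.45. The lowest were Eda2r at 0.79 and Tnfrsf8 at 0.45, and the median of the 15 was 2.74. The Tnfrsf11a gene spans 67264 bases, from 105780718 to 105847981 on the plus strand of chromosome 1, with 1 annotated protein-coding transcript.

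The TRAF genes among the members lay close together. Traf2 had a mean level of 3.68, Traf6 a mean level of 3.34 and Traf3 a mean level of 3.29, with 51.6%, 43.8% and 42.6% of rows below them. Their range was 0.39, against 6.10 among the 4 receptors and 6.86 among all 9 members. These ranges cover different numbers of genes, and the TRAF levels fell where rows are most dense. Whether the TRAF genes lie closer together than other genes was not tested. Traf6, the member that RANK signalling depends on, was 0.90 below Tnfrsf11a and 0.05 above Traf3. The remaining TRAF genes spread more widely. Traf7 was at 4.88, Traf1 at 3.56, Traf5 at 2.40 and Traf4 at 1.85. The authors' annotation gives the MATH domain family, by which these proteins bind receptor tails, to Traf1, Traf2, Traf3, Traf5 and Traf6. TRAF genes without that label, Traf4 among them, were not checked for the domain.

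Genes for the proteins that TRAF factors act with lay both above and below these TRAF genes. Of 36 listed genes 35 were analysed, with a median level of 3.70 and 20 at or above the median of all rows. Above Traf2 were 18 of them and below it 17. Sqstm1, the scaffold p62 that binds TRAF6, was the highest at 8.99, followed by the ubiquitin-conjugating factor Ube2v1 at 6.15. Birc3 and Birc2, the ligases that work with TRAF2 and TRAF3, were at 5.21 and 4.06, and Map3k7, the kinase TAK1 that acts below TRAF6, was at 3.97. Map3k14, the NF-κB-inducing kinase that TRAF3 marks for degradation, was at 2.10, and Tab3, which binds TAK1, was the lowest at 2.07.

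The ligand side was covered in part. Of a list of 13 ligands, decoys and cofactors of RANK and TREM2, 5 were analysed. Adam10, a protease that sheds TREM2, was at 5.37 and the membrane protein Ms4a6d at 4.91. Apoe, which encodes a lipoprotein ligand of TREM2, was at 2.22. Sema6d, a ligand of plexin A1, was at 1.03, and Lgr4, another receptor for RANKL, was at 0.27. The genes for RANKL and its decoy osteoprotegerin had no row under their symbols.

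The authors' pathway annotation covered 4610 rows, of which 112 were annotated to osteoclast differentiation in KEGG, and 7 of the 9 genes were among these. Tyrobp was the first of the 112 by mean level, Csf1r was at rank 4 and Trem2 at rank 10. Tnfrsf11a was at rank 53, Traf2 at 74, Traf6 at 81 and Oscar at 89. The median level of these 112 rows was 4.18. Fcer1g and Traf3 were not annotated to that pathway in the table, although both act in osteoclast precursors. Tnfrsf11a and the TRAF genes were the 4 members annotated to NF-κB signalling, and Tyrobp and Fcer1g shared the pathway of natural killer cell cytotoxicity. Numbers of pathways differed widely, from 1 each for Oscar and Trem2 to 26 for Traf6.

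**Figure D3:**
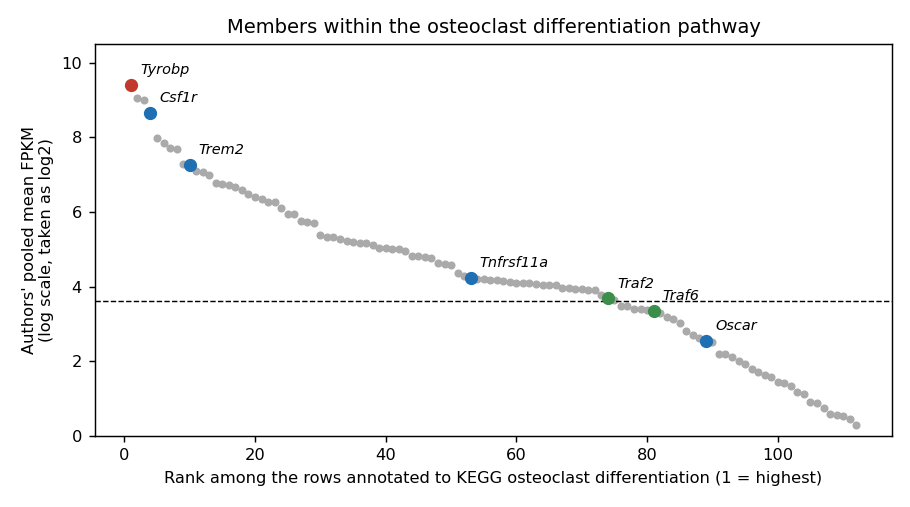
The 112 rows annotated to osteoclast differentiation are ordered by rank on the horizontal axis. The vertical axis gives the authors' pooled mean FPKM (taken as log2). Coloured points are the 7 members, from Tyrobp at rank 1 to Oscar at rank 89, and the dashed line is the median of all rows at 3.60.

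All 9 genes are annotated as protein-coding and lie on several chromosomes of GRCm38. Besides Tnfrsf11a, chromosome 1 holds Fcer1g on the minus strand from 171229572 to 171234365. On chromosome 7 lie Oscar, on the minus strand from 3609813 to 3616157, and Tyrobp, on the plus strand from 30413760 to 30417585. Chromosome 2 holds Traf2, on the minus strand from 25517982 to 25546940, and Traf6, on the plus strand from 101678429 to 101701669. Trem2 lies on the plus strand of chromosome 17 from 48346401 to 48354147, with Treml1, a member of the same receptor cluster, 5768 bases away. Traf3 lies on the plus strand of chromosome 12 from 111166370 to 111267153. Traf2 and Traf3 each overlap another annotated gene but share none of their exonic bases with it.

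Marker genes gave the setting of these values. Of 12 macrophage markers 9 were analysed, and these were at or above the median of all rows. Adgre1, which encodes F4/80, was at 4.45 and Fcgr1 was lowest at 3.89. The others, Mertk, Mrc1 and Marco, had no row under their symbols. All 12 osteoclast markers were analysed, with a median level of 5.55. They ran from the proton pump subunit Tcirg1 at 7.53 and cathepsin K (Ctsk) at 6.74 to the integrin Itgb3 at 1.41 and the calcitonin receptor Calcr at 0.45. Oscar was below 10 of these 12 markers and Tnfrsf11a below 9. Of 9 dendritic cell markers only 2 were analysed, Itgax at 4.05 and Zbtb46 at 1.06. Of 12 osteoblast and stromal markers only 2 were analysed, Runx2 at 0.53 and Pdgfrb at 0.30. The 14 markers of T, B and NK cells and the 13 of mast cells and neutrophils had no row under their symbols. The filter behind the rows is not given, and the part of such cells in the levels was not tested.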

How the data were processed

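RNA of 3 untreated and 3 RANKL-stimulated RAW264.7 samples had been sequenced from poly(A)-selected, strand-specific libraries. DESeq and mm10 are the tool and build in the submitters' processing notes. Aligner, counter, annotation and the filter behind the 11031 rows: not given in the sources used here. As deposited, the only column used is the authors' mean FPKM per row on a log scale, taken as log2. Of the table, 12 columns per library (6 FPKM, 6 counts) match no sample label, and 4 columns hold the authors' own comparison (fold change, p-value, adjusted p-value and direction); none of these was used, so the planned test between groups was not run. Depth per sample was not analysed.

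Each level was ranked among all rows with Python 3.11.15, numpy 2.4.6 and pandas 2.3.3. Coordinates, transcripts and 50-base words came from GENCODE M21 (GRCm38, the same assembly as mm10). The members and lists were chosen with earlier results of these data known. The planned rule for naming listed genes rests on fold changes; in its place the 2 highest and 2 lowest levels of most lists were named, with genes that act directly on a member, chosen after the values were seen.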

Additional observations from a re-analysis of the deposited data

How the results depend on the processing

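No paired analysis was possible because the library columns carry letters found in no sample label and were not used. Leaving out each replicate in turn was not run, since it would have needed those columns. The alternatives planned for tests, calls, counts and fold changes gave no value and were not run. In their place, 3 other sets of rows were ranked, chosen after seeing the data. Of the 9 members, 6 were at or above the median level of all rows, and also of the 10947 rows with an Ensembl identifier and of the 10885 rows of protein-coding genes. Among the 10165 rows with a level of 1 or more, 5 were, since Traf2 then had 47.4% of rows below it. Since all 9 members were above a level of 1, that filter could only lower the share of rows below them. It did so by at most 6.16 percentage points (Oscar, to 21.6%). Another log base would rescale every level and difference and leave the ranks as they are; an offset shrinks the differences of low genes.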
